A study of Mus musculus with 4 samples.

Results

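The Notch ligands, receptors and targets described here are 10 genes chosen by their symbols, the receptors Notch1, Notch2 and Notch3, the ligands Jag1, Jag2, Dll1 and Dll4, and the targets Hes1, Hey1 and Heyl, out of 54920 genes listed in the count tables. All 10 passed the expression filter, which left 23952 genes to be tested. RNA-seq was performed on ID4-EGFP+ spermatogonia, collected by flow cytometry from mouse testes at postnatal day (P) 8 to enrich for spermatogonial stem cells. The question was how loss of Cnot3, which encodes a subunit of the CCR4-NOT complex that shortens the poly(A) tails of mRNAs, changes RNA levels in these cells. Control mice carried floxed alleles on both Cnot3 copies and the Id4-eGfp reporter (Cnot3flox/flox;Id4-eGfp), and the labels call them wild-type. Cnot3-cKO mice carried the same floxed alleles and reporter together with Ddx4-creER (Cnot3flox/flox;Ddx4-creER;Id4-eGfp), a Cre that is driven in germ cells and activated by 4-hydroxytamoxifen (4-OHT). Both groups were injected with 4-OHT from P1 to P3. There were 2 control and 2 Cnot3-cKO libraries, with 40957899 and 43378493 counts in controls 1 and 2 and 22192964 and 28019626 counts in Cnot3-cKO 1 and 2. Nothing in the labels says whether the libraries came from separate animals or from pools, so p-values measure the spread between these samples, which may be technical, although the authors describe biological replicates. Counts of the libraries of a group differed by more than counting noise, with a chi-square per degree of freedom of 23.0 for the controls and 7.26 for the Cnot3-cKO libraries.

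Notch receptors sit in the cell membrane and are bound by Jagged (JAG) and Delta-like (DLL) ligands on a neighbouring cell. Binding leads to cleavage of the receptor by ADAM proteases and gamma-secretase, and the released intracellular domain joins the DNA-binding protein RBPJ and a Mastermind coactivator in the nucleus to switch on genes such as those of the HES and HEY repressors. In the testis, Sertoli cells carry NOTCH1 and germ cells present JAG1, and Notch signaling in Sertoli cells is known to lower Gdnf, which encodes the growth factor that sustains spermatogonial stem cells, and Cyp26b1, which encodes a retinoic acid-degrading enzyme.

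Cnot3 itself was counted at 58.6 and 50.2 CPM in controls 1 and 2 and at 19.2 and 19.9 CPM in Cnot3-cKO 1 and 2. Both Cnot3-cKO libraries lay far under both controls, with a log2 fold change (Cnot3-cKO minus control) of -1.48 (SE 0.129, edgeR adjusted p = 1.48e-05, n = 2 per group). CPM are counts per 1000000 counts of the tested genes after TMM scaling, and a gene was called where its adjusted p was under 0.01 and its fold change exceeded 2. Germ cell markers were abundant in all 4 libraries. The germ cell helicase gene Ddx4 stood at 726 and 703 CPM in controls and 754 and 720 CPM in Cnot3-cKO libraries. None of the 9 pan-germ markers was called by edgeR or DESeq2 (3 had an unadjusted edgeR p under 0.05). Dazl was the most abundant of them, and their summed level was 5559 and 5997 CPM in controls and 4828 and 5186 CPM in Cnot3-cKO libraries. Of the 9, 4 were lower in both Cnot3-cKO libraries than in either control, among them Tex15 (log2 fold change -0.57, edgeR adjusted p = 0.000541), Piwil4 (-0.45, adjusted p = 0.0150) and Dazl (-0.21, adjusted p = 0.0840), and 2 were higher in both. The same placings were seen in 28.6% (lower) and 30.5% (higher) of all tested genes.

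Markers of somatic testis cells were counted in the same sorted cells, and the lists differed in how many of their genes were called. Of 14 Sertoli cell markers 13, all but Rhox5, were called higher, and their summed level was 429 and 440 CPM in controls against 1322 and 1314 CPM in Cnot3-cKO libraries. Clu was the most abundant of them over the 4 libraries together, though in controls Clu (152 and 145 CPM) overlapped Ctsl (144 and 168 CPM), and the called log2 fold changes ran from 1.23 for Ctsl to 2.62 for Amh, the anti-Müllerian hormone gene. Of 6 tested Leydig cell markers 5, all but Star, were called higher, from 389 and 340 to 886 and 953 summed CPM. The steroidogenic Hsd3b1 held most of this sum, at 287 and 248 CPM in controls and 656 and 712 CPM in Cnot3-cKO libraries. Cyp17a1, also called higher, stood at only 1.76 and 1.59 CPM in controls and 5.08 and 4.36 CPM in Cnot3-cKO libraries. Insl3, a defining hormone gene of Leydig cells, had 0 counts in every library, which allows at most 3 counts in each. Of 9 macrophage markers 8, all but Cd163, were called higher, from 266 and 170 to 579 and 473 summed CPM, with Mrc1 the most abundant. DESeq2 called 7 of these 8, leaving out Cd68, whose edgeR fold of 2.02 was just over the limit. In bulk RNA, fewer or more cells of a type and less or more RNA per cell cannot be told apart.

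Vascular and peritubular markers were scarcer, apart from Mcam. Of 7 tested endothelial markers Pecam1 (log2 fold change 1.18) and Kdr (1.17) were called higher, the list summed to 24.2 and 22.2 CPM in controls and 36.2 and 41.4 CPM in Cnot3-cKO libraries, and Tek was the most abundant. None of 6 peritubular myoid markers was called by edgeR or DESeq2 (1 had an unadjusted edgeR p under 0.05), with sums of 13.9 and 16.5 against 20.4 and 25.7 CPM, led by Acta2 over the 4 libraries together and by Myh11 in each control. Acta2 (log2 fold change 0.94, adjusted p = 0.00828) passed the adjusted p limit and not the fold change limit. Of these 6 markers 4 were higher in both Cnot3-cKO libraries than in either control and 1 (Tagln) was lower in both. Of all tested genes 30.5% were higher and 28.6% lower in this way. None of 5 tested pericyte markers was called by either tool (1 had an unadjusted edgeR p under 0.05). Their sums of 365 and 387 against 602 and 548 CPM came mostly from Mcam, which was higher in both Cnot3-cKO libraries and passed the adjusted p limit but not the fold change limit (log2 fold change 0.61, adjusted p = 0.000306), while Rgs5 stood between 0.819 and 2.06 CPM.

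Markers of spermatogonial stages were read in the same way. Among 10 markers of undifferentiated spermatogonia Id4 (log2 fold change 1.04) and Eomes (1.39) were called higher, and the summed level was 1208 and 1088 CPM in controls against 1071 and 1116 CPM in Cnot3-cKO libraries. Of the 10 markers 6 were higher in both Cnot3-cKO libraries than in either control, a placing seen in 30.5% of tested genes. Lower in both were 2, a placing seen in 28.6%. The higher ones include, under the fold change limit, Gfra1 (log2 fold change 0.90, edgeR adjusted p = 3.68e-05), Bcl6b (0.65, adjusted p = 0.00257) and Etv5 (0.54, adjusted p = 0.00452). The 2 that were lower in both, also under that limit, were Zbtb16 (-0.82, adjusted p = 0.000193) and Sall4 (-0.42, adjusted p = 0.00656). Zbtb16, at 436 and 364 CPM in controls and 243 and 212 CPM in Cnot3-cKO libraries, was the most abundant in each control and over the 4 libraries together, while Ret had the higher mean in Cnot3-cKO libraries (229 and 243 CPM). Of 6 progenitor markers 4 were called lower, from Nanos3 at -1.07 to Neurog3 at -1.81, and the sum went from 139 and 152 to 81.0 and 81.6 CPM, led by Upp1 over the 4 libraries together and by Rarg in each control. Of 6 markers of differentiating spermatogonia 3 were called lower, from Kit at -1.05, the most abundant, to Dmrtb1 at -1.54, with sums of 616 and 729 against 385 and 425 CPM. The part that these shifts in cell markers have in the Notch results was not tested.

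**Figure D1:**
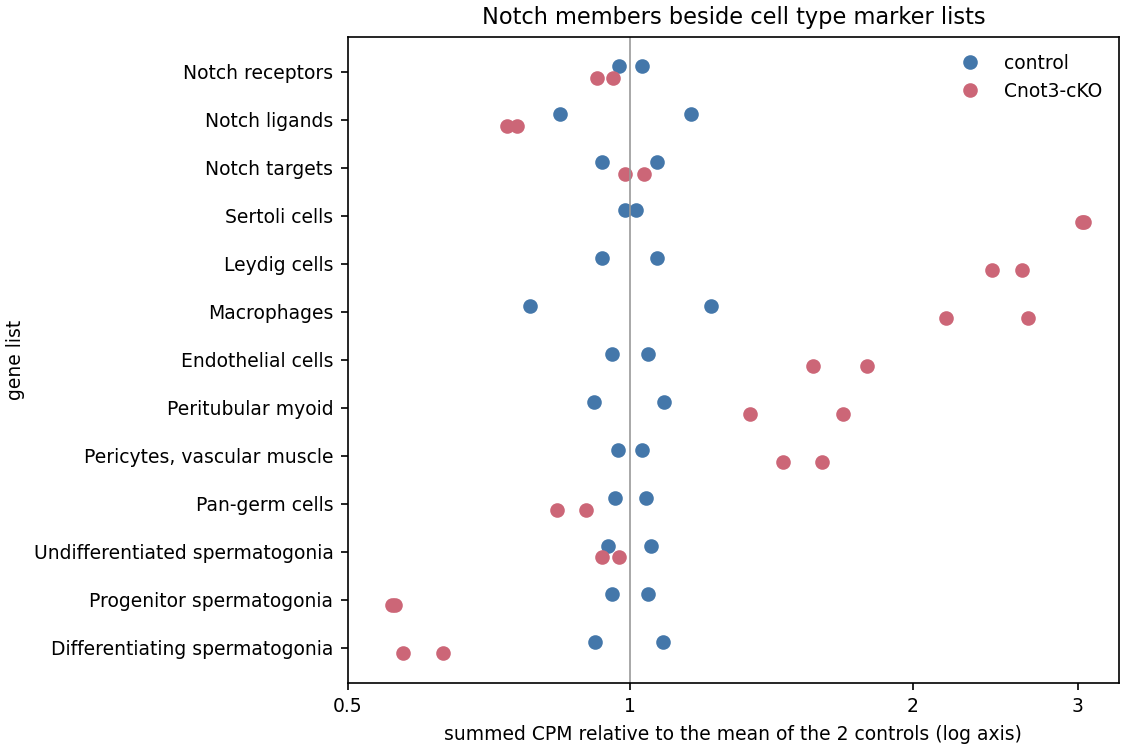
Summed CPM of each gene list in each library, divided by the mean of the 2 controls (log axis), with controls in blue and Cnot3-cKO libraries in red. The pericyte and vascular muscle sum came mostly from Mcam, and the Leydig sum mostly from Hsd3b1. The Sertoli list stood at 3.05 and 3.03 times the control mean in Cnot3-cKO 1 and 2, while the Notch ligands stood at 0.738 and 0.758, with controls 1 and 2 at 0.841 and 1.16, and the Notch targets at 0.986 and 1.03.

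None of the 10 Notch genes changed enough to be called. By edgeR 0 were called higher, where 4.03% of all tested genes were, and 0 were called lower, where 0.735% were. DESeq2 also called 0, and 5 of the 10 (Notch1, Notch2, Jag1, Hes1 and Hey1) had an unadjusted edgeR p under 0.05. No share of all tested genes is given for this unadjusted limit, here or for the other lists, so these counts have no background. At an adjusted p under 0.05 with no fold change limit, Notch1 was higher and Jag1 was lower, 1 of 10 in each direction, against 11.1% of all tested genes higher and 9.46% lower. Notch1 and Hes1 were higher in each Cnot3-cKO library than in either control, a placing seen in 30.5% of tested genes, and Notch2, Notch3, Jag1, Dll4 and Hey1 were lower in each than in either control, seen in 28.6%. For Jag2, Dll1 and Heyl the groups overlapped. The median log2 fold change of the 10 genes was -0.32, beside 0.0089 for all tested genes, and it was -0.11 without control 2. For 8 of the 10 genes the 95% interval lay inside a 2-fold change in either direction, the exceptions being the ligands Dll1 and Dll4.

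**Figure D2:**
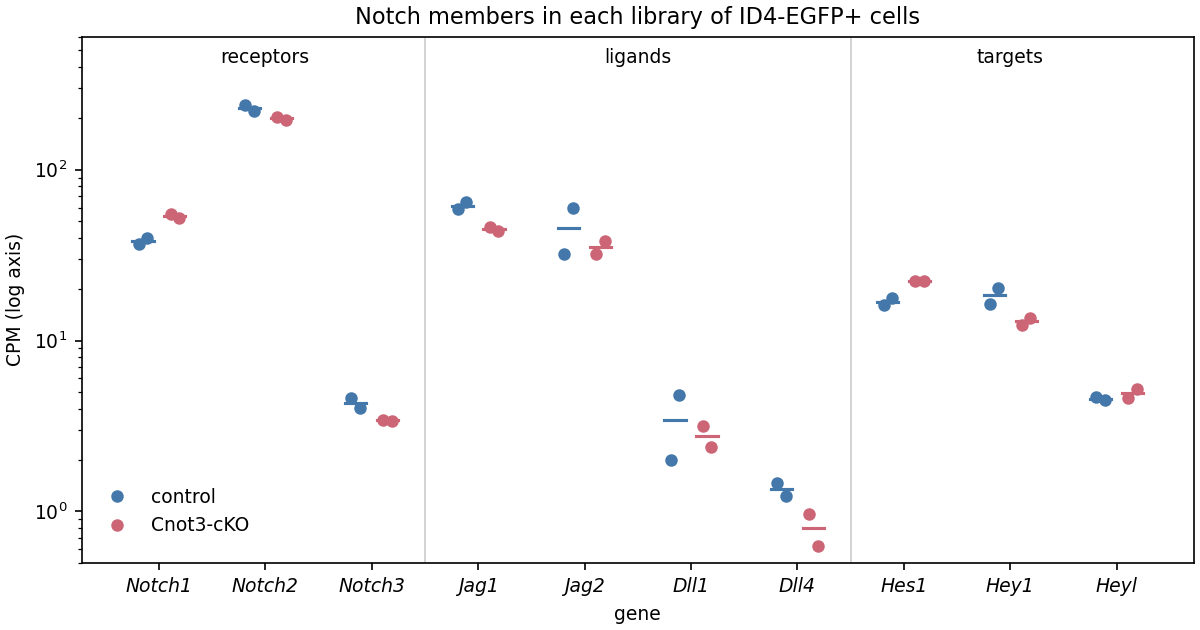
CPM (log axis) of the 10 Notch genes in each of 2 control (blue) and 2 Cnot3-cKO (red) libraries, with a bar at each group mean. Notch2 was the highest at 196 to 240 CPM and Dll4 the lowest at 0.628 to 1.46 CPM, and the control points of Jag2 and Dll1 lie far apart.

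**Figure D3:**
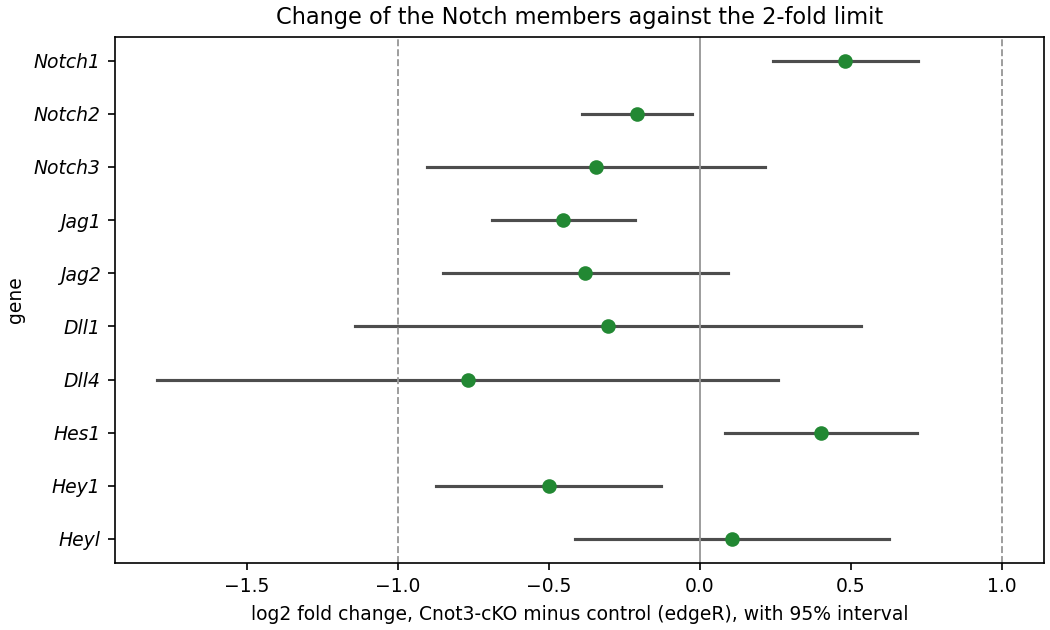
Log2 fold change (Cnot3-cKO minus control, edgeR) of each Notch gene with its 95% interval, with dashed lines at a 2-fold change. The points run from -0.77 for Dll4 to 0.48 for Notch1, and the intervals of Dll1 and Dll4 alone cross a dashed line.

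Among the receptors, Notch1 was the gene with the smallest adjusted p of the 10. Notch1 was measured at 36.7 and 40.0 CPM in controls 1 and 2 and at 54.8 and 52.4 CPM in Cnot3-cKO 1 and 2. Both Cnot3-cKO libraries were above both controls by more than the spread within either group. The log2 fold change was 0.48 (SE 0.111, 95% interval 0.24 to 0.72, edgeR adjusted p = 0.00863), a 1.40-fold difference that passed the adjusted p limit and stayed under the fold change limit. The adjusted p was over its limit of 0.01 with DESeq2 size factors (0.0116), without control 1 (0.0110), without Cnot3-cKO 1 (0.0781) and without Cnot3-cKO 2 (0.0324). Notch2, a receptor with the same domain plan, was measured at 240 and 221 CPM in controls and at 204 and 196 CPM in Cnot3-cKO libraries. It was lower in both Cnot3-cKO libraries, with a log2 fold change of -0.21 (SE 0.0836, 95% interval -0.39 to -0.027, edgeR adjusted p = 0.102). Without control 2 it was at -0.28 (adjusted p = 0.00820), the sole alternative that took its adjusted p under 0.01, and with scaling to the pan-germ markers its adjusted p was 0.991. Notch3, a receptor best known from vascular smooth muscle, was counted at 4.62 and 4.04 CPM in controls and 3.44 and 3.39 CPM in Cnot3-cKO libraries. Its groups did not overlap, but its interval of -0.90 to 0.22 around a log2 fold change of -0.34 included 0.

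Per kilobase of exon, Notch1 and Notch2 levels were closer to each other in the Cnot3-cKO libraries. On the RPKM scale (CPM per kilobase of exon), Notch1 amounted to 0.116 and 0.137 of Notch2 in controls 1 and 2 and to 0.204 and 0.203 of it in Cnot3-cKO 1 and 2. Since Notch1 lay higher and Notch2 lower in both Cnot3-cKO libraries, this ratio had to separate the groups and adds no further support. Of the summed RPKM of Notch1 to Notch4, Notch2 held 86.3% and 84.4% in controls and 79.4% and 78.4% in Cnot3-cKO libraries, so it was the main receptor RNA in each library. Notch1 held at most 11.5% in a control and at least 15.9% in a Cnot3-cKO library. An exact permutation test of 2 libraries against 2 cannot give a two-sided p under 0.333, and no other test of these ratios and shares was run.

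**Figure D4:**
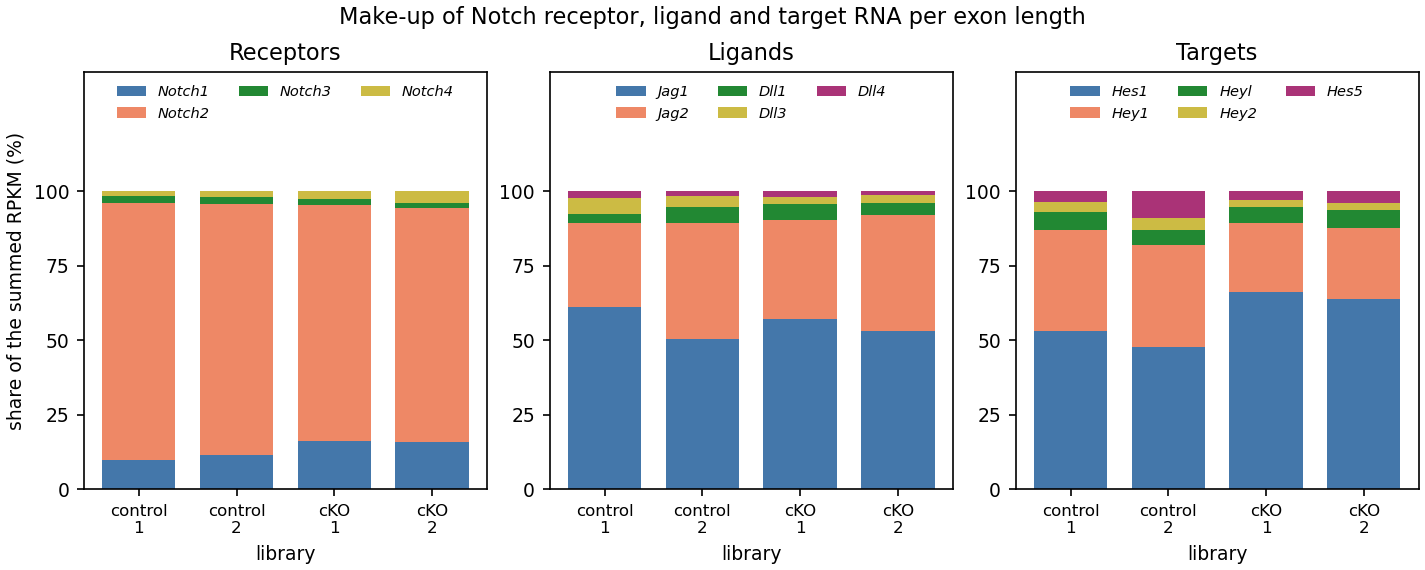
Share of the summed RPKM (%) held by each receptor, ligand and target gene in each library, with each bar adding to 100%. Notch2 is the main receptor RNA in every library, Jag1 the main ligand RNA, and Hes1 takes 66.3% and 63.8% of the target RNA in Cnot3-cKO 1 and 2 against 53.3% and 47.8% in controls 1 and 2.

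The promoters of the Notch genes were searched for the N-box CACNAG, letters that HES repressors are known to bind. RefSeq promoters (GRCm38.p6, 250 bases before to 50 after the start) were given for 7 of the 10 genes, Notch1, Notch2, Notch3, Jag1, Jag2, Dll1 and Dll4, with an entry for each of 2 starts of Dll1. Hes1, Hey1 and Heyl had no entry. The N-box was searched on both strands and occurs in 42.5% of 32851 promoters of the same length. Notch1 and Notch2 are shown because both Cnot3-cKO libraries lay above the controls for Notch1 and below them for Notch2. The Notch1 window is chr2:26503773-26504072 on the minus strand and the Notch2 window is chr3:98013288-98013587 on the plus strand, each written 5′ to 3′ on the strand of the gene with N-box matches in capitals.
Notch1: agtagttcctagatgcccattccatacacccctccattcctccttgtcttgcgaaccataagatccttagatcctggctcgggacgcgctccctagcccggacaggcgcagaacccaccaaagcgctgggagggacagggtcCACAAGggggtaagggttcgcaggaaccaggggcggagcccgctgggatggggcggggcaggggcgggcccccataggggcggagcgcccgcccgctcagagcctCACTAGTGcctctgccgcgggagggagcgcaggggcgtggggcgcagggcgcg
Notch2: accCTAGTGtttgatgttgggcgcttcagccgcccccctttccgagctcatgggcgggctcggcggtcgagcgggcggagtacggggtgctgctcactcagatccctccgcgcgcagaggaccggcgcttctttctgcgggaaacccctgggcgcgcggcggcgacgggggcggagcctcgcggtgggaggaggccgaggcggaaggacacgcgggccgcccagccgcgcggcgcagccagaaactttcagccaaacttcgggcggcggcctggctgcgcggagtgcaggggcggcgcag
The Notch1 window held 3 matches, of which the pair near the start lie on opposite strands and share letters. At least 3 matches were held by 2.1% of all promoters. That limit equals the count of Notch1, the highest of these windows, so the share is not a test of Notch1. Notch2 held 1 match, Notch3 held 2, Dll4 held 1, Dll1 held 1 at one start and 0 at the other, and Jag1 and Jag2 held 0. The RBPJ core TGGGAA, found on either strand in 25.6% of promoters, was in 0 of these windows. Binding at these letters was not tested.

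Among the ligands, Jag1 lay lower in both Cnot3-cKO libraries and Jag2 did not separate the groups. Jag1, the Jagged ligand known on germ cells, was measured at 58.7 and 64.6 CPM in controls 1 and 2 and at 46.5 and 43.7 CPM in Cnot3-cKO 1 and 2. Neither Cnot3-cKO library reached the lower control. The log2 fold change was -0.45 (SE 0.109, 95% interval -0.69 to -0.21, edgeR adjusted p = 0.0113), a difference of less than 2-fold. Its adjusted p was under 0.01 in some alternatives, among them without control 1 (0.000201), and not in others, among them without Cnot3-cKO 2 (0.0956). Jag2, the other Jagged ligand, was at 32.1 and 59.3 CPM in controls and at 32.1 and 38.2 CPM in Cnot3-cKO libraries. Control 2 was the high library, and control 1 lay level with the lower Cnot3-cKO library. The log2 fold change of -0.38 had a 95% interval of -0.85 to 0.094 (edgeR adjusted p = 0.258). In RPKM, Jag1 was 2.18 and 1.30 times Jag2 in controls and 1.73 and 1.37 times Jag2 in Cnot3-cKO libraries, and these ratios overlap.

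The Delta-like ligands had low counts. Dll1, a Delta-like ligand, had 81 and 202 counts in controls 1 and 2 and 72 and 68 counts in Cnot3-cKO 1 and 2, which is 2.01 and 4.80 against 3.18 and 2.37 CPM. Control 2 was again the high library, and both Cnot3-cKO libraries lay between the controls. The log2 fold change was -0.30 (95% interval -1.14 to 0.54). Dll4, the Delta-like ligand best known from endothelium, had 59 and 52 counts in controls and 22 and 18 counts in Cnot3-cKO libraries, or 1.46 and 1.24 against 0.971 and 0.628 CPM. Both Cnot3-cKO libraries lay under both controls, and the log2 fold change of -0.77 had an interval of -1.80 to 0.26, so a 2-fold decrease and no change were both inside it at this depth. Summed over the 4 ligands, the level was 94.3 and 130 CPM in controls and 82.8 and 84.9 CPM in Cnot3-cKO libraries. Control 2 was the high library here too, and control 1 lay closer to the Cnot3-cKO libraries.

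Jag2 and Dll1 rested on control 2. On a log2 scale with 0.5 CPM added, control 2 exceeded control 1 by 0.88 for Jag2 and by 1.08 for Dll1, at percentiles 99.7 and 99.8 of 16178 genes, whereas Jag1 differed by 0.14, at percentile 71.2. Without control 2 the direction turned for both genes, to log2 fold changes of 0.12 for Jag2 and 0.45 for Dll1. Without control 1 they were further from 0 than in the main fit, at -0.77 for Jag2 and -0.81 for Dll1. Across the 16178 genes, which are not independent replicates, the difference between the controls had a Spearman correlation of 0.299 with transcript GC content, and that between the Cnot3-cKO libraries one of -0.045. Transcript GC content was 61.9% for Jag2, the highest of the 10 genes, and 54.9% for Dll1. With a correction for GC content and length, chosen after seeing the data, the log2 fold changes were -0.36 for Jag2 and -0.34 for Dll1.

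Among the targets, Hes1 and Hey1 lay on opposite sides of the controls. Hes1, a bHLH repressor and the most widely used readout of Notch activity, was measured at 16.1 and 17.7 CPM in controls 1 and 2 and at 22.3 and 22.4 CPM in Cnot3-cKO 1 and 2. The Cnot3-cKO libraries nearly coincided and both exceeded the controls. The log2 fold change was 0.40 (SE 0.147, 95% interval 0.083 to 0.72, edgeR adjusted p = 0.0730). Hey1, a related bHLH repressor, was at 16.4 and 20.3 CPM in controls and at 12.4 and 13.5 CPM in Cnot3-cKO libraries. Both Cnot3-cKO libraries were under the lower control, with a log2 fold change of -0.50 (SE 0.172, 95% interval -0.87 to -0.13, edgeR adjusted p = 0.0580). Hey1 was at -0.66 without control 1 and at -0.34 without control 2. With scaling to the pan-germ markers its edgeR adjusted p was 0.286. Heyl, the remaining HEY-family member among the 10, was at 4.67 and 4.47 CPM in controls and 4.59 and 5.24 CPM in Cnot3-cKO libraries. Its groups overlapped, and its log2 fold change of 0.11 had an interval of -0.41 to 0.63.

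Because Hes1 and Hey1 lay on opposite sides, their ratio had to separate the groups, whereas the summed level of the targets did not. Hes1, Hey1 and Heyl together summed to 37.1 and 42.5 CPM in controls and 39.3 and 41.2 CPM in Cnot3-cKO libraries. In RPKM, Hes1 was 1.58 and 1.40 times Hey1 in controls and 2.88 and 2.65 times Hey1 in Cnot3-cKO libraries. Of the summed RPKM of Hes1, Hey1, Heyl, Hey2 and Hes5, Hey1 held 33.8% and 34.3% in controls and 23.0% and 24.1% in Cnot3-cKO libraries.

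In order of level per exon length in controls, the 10 genes stood at a mean RPKM of 21.4 for Notch2, 10.6 for Jag1, 8.30 for Hes1, 6.56 for Jag2, 5.62 for Hey1, 2.69 for Notch1, 0.893 for Heyl, 0.807 for Dll1, 0.535 for Notch3 and 0.351 for Dll4. Neighbours whose control libraries overlapped were Hes1 with Jag2, Jag2 with Hey1, Heyl with Dll1, and Dll1 with Notch3. In Cnot3-cKO libraries the mean RPKM was 18.5 for Notch2, 11.0 for Hes1, 7.74 for Jag1, 5.05 for Jag2, 3.97 for Hey1 and 3.77 for Notch1, and under 1 for Heyl, Dll1, Notch3 and Dll4. Hes1 thus stood above Jag1 in the Cnot3-cKO order, and there the overlapping neighbours were Hey1 and Notch1.

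In the GRCm38 annotation Notch1, Jag1 and Dll4 lie on chromosome 2, Notch2 and Hey1 on chromosome 3, Notch3 and Dll1 on chromosome 17, and Heyl, Jag2 and Hes1 on chromosomes 4, 12 and 16. Exon length ran from 2.04 kb for Hes1 to 14.2 kb for Notch1. Some annotated genes share exon sequence with a Notch gene. Notch1 overlaps 0610009E02Rik and Gm13568 on the opposite strand, Notch3 overlaps Gm17276, Dll1 overlaps A930024N18Rik and Dll4 overlaps Gm14207, all on the opposite strand, and Notch2 overlaps Gm42820 on its own strand. The kit marks strand, but the counting option is not given in the sources used here, so reads of overlapping genes are uncertain. Gm42820 had at most 70 counts in a library beside at least 4612 for Notch2, and 0610009E02Rik had at most 23 beside at least 1241 for Notch1. Gm14207 had 11, 16, 9 and 3 counts in controls 1 and 2 and Cnot3-cKO 1 and 2, beside 59, 52, 22 and 18 for Dll4. Gm17276 had 40, 25, 12 and 20 counts beside 186, 170, 78 and 97 for Notch3, so for both of these Notch genes the overlapping counts are not small. A930024N18Rik was not analysed here.

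The rest of the pathway was read from 50 further genes, of which 47 were tested. Of these, 4 were called higher (Dtx1, Dtx3, Dtx4 and Gdnf) and 1 was called lower (Dlk2), where 4.03% and 0.735% of all tested genes were. The median log2 fold change of the 47 was -0.069. For the other pathway genes it turned to 0.14 with scaling to the pan-germ markers. It was -0.15 without an expression filter and -0.16 with DESeq2. Hes2, Hes3 and Hes7, with at most 13 counts in a library, were filtered out. At an adjusted p under 0.05 with no fold change limit, 8 were higher and 10 were lower, beside 11.1% and 9.46% of all tested genes. The 95% interval lay inside a 2-fold change for 27 of the 47. DESeq2 called the same 5 genes. None of the 5 was called when edgeR tested directly against a 2-fold change (glmTreat).

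Deltex genes encode RING-type ubiquitin ligases, of which DTX1 is a known regulator bound to the Notch intracellular domain. Dtx3 was measured at 4.57 and 4.83 CPM in controls 1 and 2 and at 17.5 and 14.6 CPM in Cnot3-cKO 1 and 2. Dtx1 was at 4.42 and 5.85 CPM in controls and at 12.8 and 15.2 CPM in Cnot3-cKO libraries, and Dtx4 at 18.4 and 15.6 against 36.7 and 36.2 CPM. All 3 genes were higher in both Cnot3-cKO libraries than in either control, a placing seen in 30.5% of all tested genes. Their log2 fold changes were 1.77 for Dtx3 (SE 0.196, edgeR adjusted p = 8.19e-05), 1.45 for Dtx1 (SE 0.213, adjusted p = 0.000571) and 1.10 for Dtx4 (SE 0.140, adjusted p = 0.000216). Without control 2, Dtx4 was at 0.97 and under the fold change limit. Dtx2 was at 71.2 and 84.3 CPM in controls and at 82.0 and 88.7 CPM in Cnot3-cKO libraries, which overlap.

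The other genes for inhibition and turnover of Notch were not called. Fbxw7, whose product marks the Notch intracellular domain for degradation, was at 130 and 135 CPM in controls and 92.1 and 100 CPM in Cnot3-cKO libraries, a log2 fold change of -0.46 (edgeR adjusted p = 0.00377). Numbl had a log2 fold change of -0.55 (adjusted p = 0.0157), while the intervals of Numb (-0.31 to 0.17) and Itch (-0.36 to 0.068) were narrow and included 0. Nrarp, a small target that feeds back on the pathway, had 8 and 46 counts in controls and 4 and 28 counts in Cnot3-cKO libraries. In each group library 2 held the higher count, the groups overlapped, and the interval of -1.98 to 1.72 around a log2 fold change of -0.13 was wide.

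Gdnf rose and Cyp26b1 did not separate the groups. Gdnf was at 1.96 and 2.04 CPM in controls 1 and 2 and at 7.99 and 6.35 CPM in Cnot3-cKO 1 and 2, and both Cnot3-cKO libraries were above both controls. The log2 fold change was 1.84 (SE 0.260, edgeR adjusted p = 0.000448). Cyp26b1 was at 11.9 and 10.5 CPM in controls and 11.6 and 13.9 CPM in Cnot3-cKO libraries, with a log2 fold change of 0.19 and an interval of -0.21 to 0.59. The 13 Sertoli markers called higher had log2 fold changes in the range that also holds Gdnf, and the part of Sertoli RNA in the Gdnf result was not tested.

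Dlk2, which encodes a Delta-like homologue without the usual receptor-binding domain, was the pathway gene called lower. It had 65 and 63 counts in controls and 8 and 5 counts in Cnot3-cKO libraries, and its log2 fold change was -2.58 (SE 0.567, 95% interval -3.83 to -1.36, edgeR adjusted p = 0.00658). The call was lost without control 1 (log2 fold change -2.53, adjusted p = 0.0108) and without Cnot3-cKO 2 (-2.13, adjusted p = 0.0174), the range over all alternatives being 9.16e-05 to 0.0174. Dlk1, its relative, was at 11.3 and 11.9 CPM in controls and 8.08 and 6.04 CPM in Cnot3-cKO libraries. Dll3, a divergent Delta-like protein that acts within the cell, had 100 and 101 counts in controls and 22 and 32 counts in Cnot3-cKO libraries. Both lay lower in both Cnot3-cKO libraries, with log2 fold changes of -0.72 (adjusted p = 0.0269) and -1.22 (adjusted p = 0.0323), and were not called. Notch4, known from endothelium, was at 3.15 and 3.95 CPM in controls and 5.03 and 7.30 CPM in Cnot3-cKO libraries, a log2 fold change of 0.80 (adjusted p = 0.0516).

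In the nuclear complex, none of 8 tested genes was called by edgeR or DESeq2 (6 had an unadjusted edgeR p under 0.05, a limit without a background share). At an adjusted p under 0.05 with no fold change limit, 2 were higher and 2 were lower, beside 11.1% and 9.46% of all tested genes. Rbpj, the DNA-binding partner of the intracellular domain, was at 123 and 110 CPM in controls and 76.1 and 83.5 CPM in Cnot3-cKO libraries. Maml1, a Mastermind coactivator, was at 51.6 and 38.1 CPM in controls and 23.4 and 27.0 CPM in Cnot3-cKO libraries. Both genes were lower in both Cnot3-cKO libraries, by log2 fold changes of -0.55 (SE 0.0988, edgeR adjusted p = 0.00221) and -0.83 (SE 0.155, adjusted p = 0.00258). Maml1 was called without control 2. Snw1 (0.36, adjusted p = 0.0161) and the RBPJ relative Rbpjl (1.11, adjusted p = 0.0224) were higher, with Rbpjl at 69 and 67 counts in controls and 87 and 95 counts in the smaller Cnot3-cKO libraries. Rbpjl was called with scaling to the pan-germ markers and at an adjusted p under 0.05.

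Among genes for receptor processing, none of 10 proteolysis genes was called by edgeR or DESeq2 (3 had an unadjusted edgeR p under 0.05). Adam10, the protease that makes the ligand-dependent cleavage, was at 93.0 and 87.1 CPM in controls and 97.1 and 83.0 CPM in Cnot3-cKO libraries, with an interval of -0.22 to 0.22. Psen2, a catalytic subunit of gamma-secretase, had a log2 fold change of 0.71 (edgeR adjusted p = 0.0102), and Furin, which encodes the convertase that cuts the receptor on its way to the surface, had one of -0.47 (adjusted p = 0.0367) and was lower in both Cnot3-cKO libraries. None of 5 glycosylation genes was called by either tool (2 had an unadjusted edgeR p under 0.05), and among them Rfng, a Fringe enzyme that alters ligand preference, was at 9.31 and 9.22 CPM in controls and 5.30 and 4.89 CPM in Cnot3-cKO libraries. This was a log2 fold change of -0.86 (adjusted p = 0.0111), short of a call. Of 6 genes for ligand ubiquitination none was called by either tool (3 had an unadjusted edgeR p under 0.05), Mib2 being at 0.67 (adjusted p = 0.0281) and Neurl1b at -0.49 (adjusted p = 0.0438).

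Of the other HES and HEY genes 3 were tested, and none was called by edgeR or DESeq2 (0 had an unadjusted edgeR p under 0.05). Hes5 had 28 and 94 counts in controls 1 and 2 and 14 and 25 counts in Cnot3-cKO 1 and 2, so control 2 stood apart as for Jag2 and Dll1. Hes6 was at 7.85 and 9.25 CPM in controls and 9.22 and 5.03 CPM in Cnot3-cKO libraries, and Hey2 at 2.26 and 3.40 against 1.90 and 1.99 CPM. The 3 intervals included 0.

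**Figure D5:**
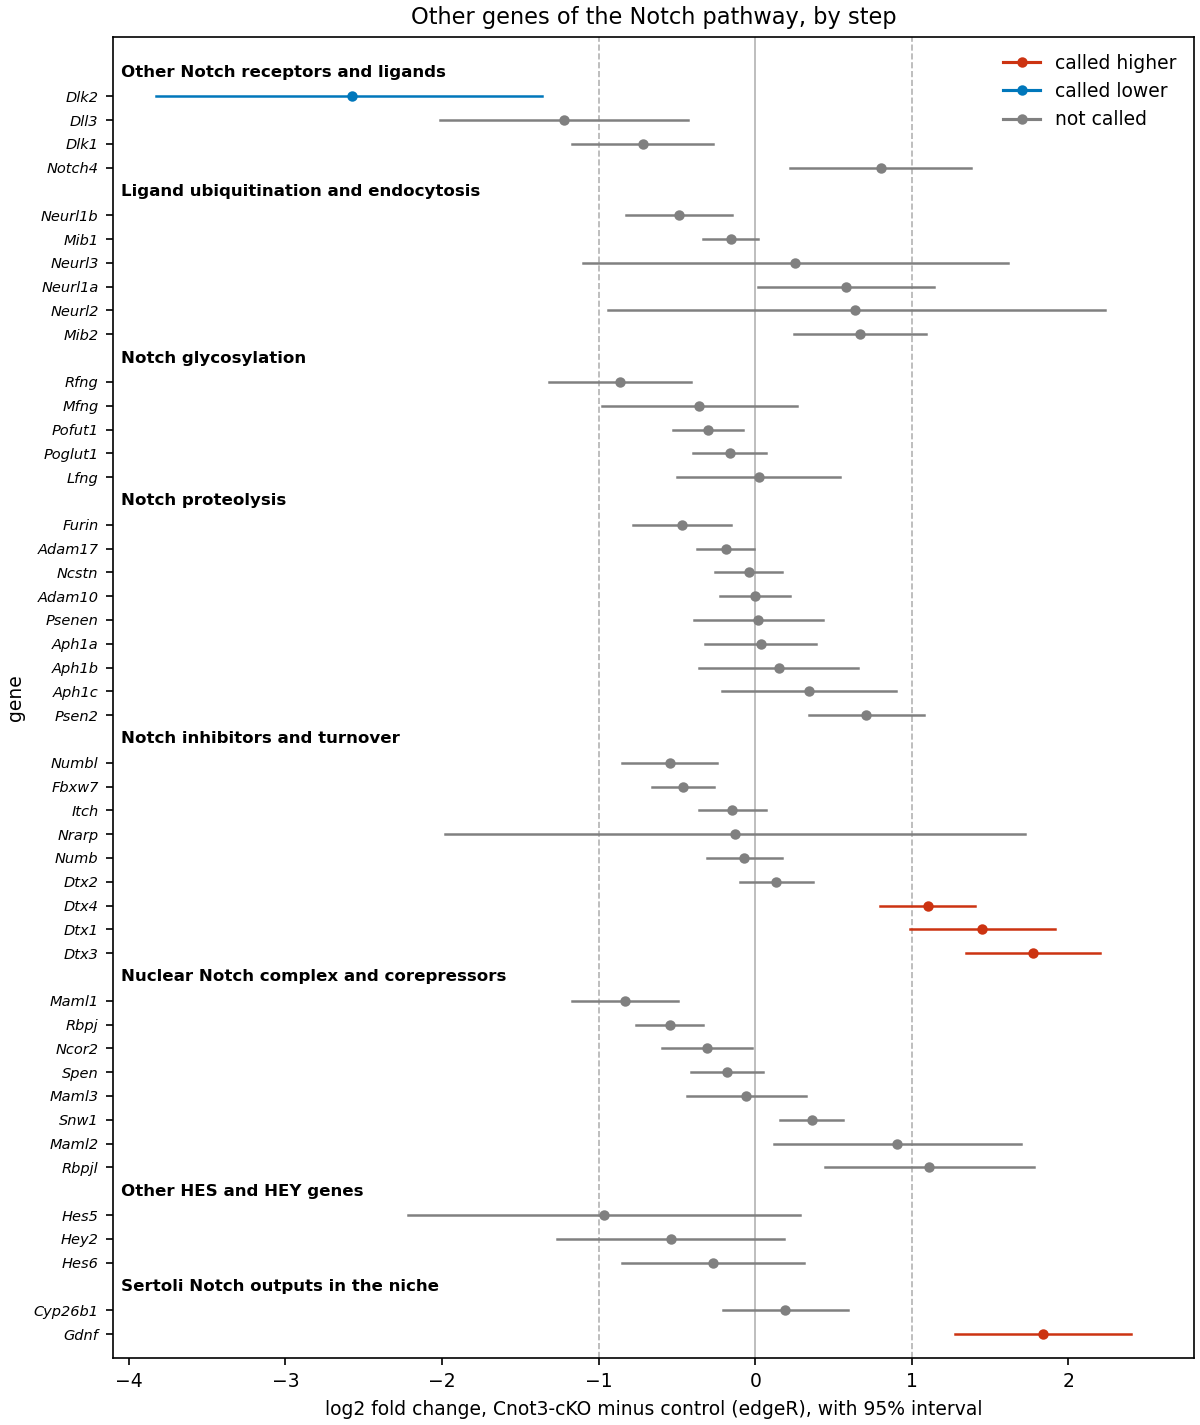
Log2 fold change (Cnot3-cKO minus control, edgeR) with 95% interval for tested genes of the rest of the Notch pathway, grouped by step, with called genes in red (higher) or blue (lower) and dashed lines at a 2-fold change. Called genes are Dtx1, Dtx3, Dtx4 and Gdnf on the higher side and Dlk2 on the lower side.

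The Notch genes were also read under a scaling to the summed counts of the 9 pan-germ markers. Dazl (2339 and 2634 CPM in controls 1 and 2) and Tex15 (1408 and 1462 CPM) weighed most in that sum. Both lay lower in both Cnot3-cKO libraries than in either control. Scaling to the pan-germ markers moved the median log2 fold change of all tested genes from 0.0089 to 0.21. Under it Notch1 was at 0.69 and Notch2 at -0.0027, Jag1 at -0.24 (edgeR adjusted p = 0.207, with a range over all alternatives of 0.000201 to 0.207) and Hey1 at -0.29. The median of the 10 genes was then -0.11, beside 0.23 for the pan-germ markers themselves.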

How the data were processed

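The authors aligned the reads to mm10 with STAR, counted them per gene with featureCounts against GENCODE genes and deposited raw counts per gene for each of the 4 libraries, made with a kit that marks strand. Library totals were 22192964 to 43378493 counts. Genes were matched by symbol. The counts were filtered (filterByExpr), scaled by TMM and tested between 2 control and 2 Cnot3-cKO libraries by the edgeR 4.0.16 quasi-likelihood test (limma 3.58.1, R 4.3.3) with Benjamini-Hochberg adjustment over 23952 genes, and a call needed a fold change above 2 with an adjusted p under 0.01. DESeq2 1.42.0, other scalings, filters and thresholds, a replicate block and leaving out each library were alternatives. Exon lengths, GC content and overlaps came from GENCODE M21 (GRCm38), which is not the authors' release, so RPKM are approximate. The authors describe more replicates than the 2 libraries per group analysed here. The procedure was tested on simulated counts with known changes. Intervals at 95% are not adjusted for the number of genes. They rest on edgeR dispersions that borrow information from the other tested genes, since 2 libraries per group say little about the spread of a single gene.

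Named genes are the 10 Notch genes, Cnot3, genes of the Notch pathway lists, genes whose exons overlap a Notch gene, and of each cell type list the most abundant gene, called genes with the extreme fold changes and markers at or under 3 counts. Rgs5, Ddx4, Tex15, Piwil4, Sall4, Gfra1, Bcl6b, Etv5, Ret, Rarg, Myh11, Tagln, Rhox5, Star, Cyp17a1, Cd163 and Cd68 were named after their values were seen. The members and lists were chosen with earlier results of these data known. Figures were drawn with matplotlib 3.10.9. Values of 1 tested gene of the pathway lists are not reported here or drawn.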

Additional observations from a re-analysis of the deposited data

How the results depend on the processing

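Over the alternatives with a test, the log2 fold changes of the 10 Notch genes kept their direction except that, without control replicate 2, Jag2 went to 0.12 and Dll1 to 0.45, while Notch2 came to -0.0027 with scaling to the pan-germ list and Heyl to 0.0024 without Cnot3-cKO replicate 2. On leaving out each library in turn, Jag2 ranged from -0.77 to 0.12 and Dll1 from -0.81 to 0.45. Beyond the values of the controls, their relation to GC content and the correction for GC content and length, the cause was not tested. Notch1 ranged from 0.41 to 0.69 (edgeR or DESeq2 adjusted p 0.000802 to 0.0781), Hes1 from 0.32 to 0.61, Jag1 from -0.53 to -0.24 and Hey1 from -0.66 to -0.29, the values of Jag1 and Hey1 nearest 0 being those with scaling to the pan-germ list. No Notch gene was called higher under any setting but one, the removal of the fold change limit, which gave 1 (Notch1), and 0 were called lower under any setting.

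Counts of all genes called were 965 higher and 176 lower. Those that moved by over 1.5 times were 80 lower with scaling to the pan-germ list, 285 lower without an expression filter, 87 higher and 5 lower with glmTreat against a 2-fold change, 1452 higher and 284 lower at an adjusted p under 0.05, and 1488 higher and 1125 lower without a fold change limit. Leaving out each library gave 217 to 271 lower. Of the other pathway genes, 0 were called higher and 0 lower with glmTreat, 0 lower with a mean count of at least 50 (which leaves out Dlk2), 2 lower at an adjusted p under 0.05, 4 lower without a fold change limit, and 0 to 2 lower on leaving out each library. Where a single library was left, it was assumed to vary like the other group.

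With a replicate block, 1155 genes were called higher and 217 lower, 0 Notch genes were called, and the same 5 other pathway genes were called. Deviations of same-numbered libraries correlated at r = 0.055 over 16178 genes. With groups of 2, this value cannot decide whether same-numbered libraries share more than a number, and the labels do not say. Groups of 2, the gap between the controls for Dll1 and the low counts of Dll4 limit what could be detected. Dlk2 also had low counts, and although it was called its interval was wide (-3.83 to -1.36). Thinning all libraries to 22192964 counts and the correction for GC content and length, both chosen after seeing the data, left 0 Notch genes called and called the same 5 other pathway genes.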
